A study of Gallus gallus with 6 samples.

Results

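In 3 hens, 48 genes were higher in the small yellow follicle with more transcript of the follicle-stimulating hormone receptor (*FSHR*) than in its partner from that hen. Among them were the retinol receptor gene *STRA6*, the thyroid hormone deiodinase gene *DIO3*, the sulfate enzymes *SULF1*, *GAL3ST2* and *CHST8*, and a group of cathepsin-like gene models. The genes were chosen by the measured ratios themselves. A gene was selected on 2 conditions: at least 1 FPKM in 3 or more of the 6 follicles, and a log2 ratio of 0.7 or more, after adding 0.5 FPKM, in each of the pairs T4/T1, T5/T2 and T6/T3. FPKM counts sequenced fragments relative to transcript length and to the size of the library. Of 17992 genes, 12381 passed the filter on low values and 69 passed in every pair. Left out were 12 of these on the sequence that carries the *SMAD2* gene number, chromosome Z, and 9 from a list of 17 genes set apart by name, *INHA*, *ZP3* and *TH* among the 9, which left 48. The ratios of these genes are therefore a description, and no test was made on them.

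Small yellow follicles are the pool from which a hen takes the next follicle of its preovulatory hierarchy. Follicle-stimulating hormone acts on granulosa cells, the layer next to the oocyte, through its receptor, which raises cyclic AMP in the cell. Granulosa cells that become more responsive to the hormone are a known mark of follicle selection. Whole follicles were measured, with the oocyte, the granulosa layer and the theca together.

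RNA-seq was run on 6 follicles of wild-type Jining Bairi hens aged 30 weeks, 1 library each: T4 and T1 of hen 1, T5 and T2 of hen 2, and T6 and T3 of hen 3. No treatment is given for any of them. The titles of the samples give the higher *FSHR* level to T1, T2 and T3, and the study's own PCR gives the higher mean to T4, T5 and T6, clearly so in hen 1 only and with no resolved difference in hen 3. The deposited values gave *FSHR* (gene4883) a level of 46.4, 18.9 and 27.8 FPKM in T4, T5 and T6, against 11.9, 13.1 and 13.9 FPKM in T1, T2 and T3. Log2 ratios were therefore formed as T4/T1, T5/T2 and T6/T3, and the titles go against this direction. The follicles had 12318559 (T2) to 14083807 (T6) normalized counts in all. With 1 follicle on each side, the ratio of a single hen has no replicate behind it.

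The share of genes past 0.7 differed between the hens. It was 8.61% for T4 over T1, 2.96% for T5 over T2 and 5.84% for T6 over T3. In every pair at once it was 0.557%, the 69 genes before exclusions, while 24 genes, 0.194%, were at -0.7 or lower in every pair. The 48 genes had a median log2 ratio of 2.20 in hen 1 (0.75 to 5.94), 1.17 in hen 2 (0.71 to 3.53) and 1.16 in hen 3 (0.72 to 6.51). The medians of all filtered genes were 0.003, -0.017 and 0.021. A log2 ratio of 1 or more was reached by 44 of the 48 genes in hen 1, 31 of them in hen 2, 33 in hen 3 and 22 in all hens. The rule had required 0.7 in every hen, and no share of all filtered genes at 1 was taken. Nothing is read from these counts. Just inside the limit lay the gene described as *CHORDC1* (lowest ratio 0.707), *COQ10A* (0.711) and *ID2* (0.716). Just outside it lay *PTGFRN* (0.679), an unnamed gene on chromosome 26, 4647757 to 4658382 (0.678), and *CHST15* (0.672).

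**Figure D1:**
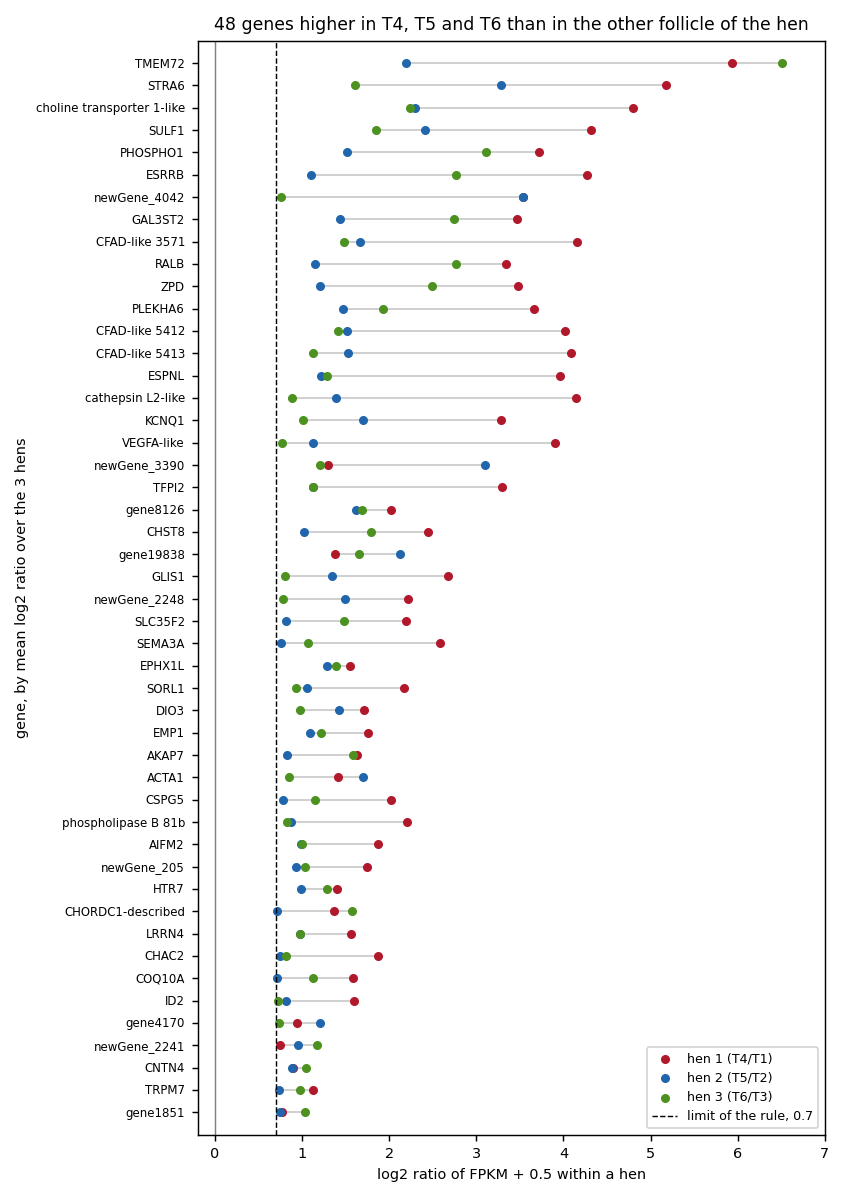
Log2 ratio of FPKM + 0.5 within each hen (horizontal axis) for each of the 48 genes (vertical axis, ordered by the mean of the 3 hens). Points are hens, the grey bar spans them and the dashed line is the limit of 0.7; CFAD-like stands for counting factor associated protein D-like. The hen 1 point is the rightmost for 39 genes.

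The largest ratio was in hen 1 for 39 of the 48 genes, in hen 2 for 4 and in hen 3 for 5, while 39.3% of all filtered genes had theirs in hen 1. The smallest was in hen 2 for 27 genes. T4 was the highest follicle for 35 genes, against 33.0% of all filtered genes, and T5 was the lowest of T4, T5 and T6 for 42, against 37.4%. Hen 1 also had the most genes past 0.7 overall. *FSHR* itself had log2 ratios of 1.92, 0.51 and 0.98, in the order hen 1, hen 3, hen 2. That order was shared by 23 of the 48 genes (47.9%) and by 24.0% of all filtered genes, and since the rule used these ratios nothing is read from any of these counts.

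Markers of fibroblasts and vessels differed in hen 1 and not past the limit in hens 2 and 3. Of 15 fibroblast and matrix markers 9 had a gene number, and their summed level was 1187, 4748 and 6993 FPKM in T4, T5 and T6, against 6267, 4613 and 7854 FPKM in T1, T2 and T3. All 9, *COL1A2*, *COL3A1* and *LUM* among them, were at -0.7 or lower in hen 1, and none passed 0.7 either way in hens 2 and 3, where the medians were 0.00 and -0.11. Of 23 granulosa markers 10 had a gene number, summing to 15677, 6326 and 6200 FPKM in T4, T5 and T6, against 2715, 3293 and 2601 FPKM in T1, T2 and T3. Most of each sum was the egg coat gene *ZP3*, with 10951, 5207 and 4217 FPKM in T4, T5 and T6, against 1948, 2547 and 2005 FPKM in T1, T2 and T3. All 10 were past 0.7 in hen 1, 4 in hen 2 and 7 in hen 3, and 1, *FST*, was at -0.7 or lower in hen 3. Of all filtered genes, 8.61%, 2.96% and 5.84% were past 0.7 in hens 1, 2 and 3. The 4 of hen 2 were *ZPD*, which had to pass by the rule, and *INHA*, *ZP3* and *CARTPT*. These passed in every hen and were left out of the 48, so nothing is read from the counts. The median ratios of the 10 markers were 1.93, 0.33 and 1.18. In hen 2 *GATA4* (-0.04), *GATA6* (0.14), *NR5A1* (0.11) and *FST* (-0.02) were near 0. Also in hen 2, *FSHR* had 0.51, and *WNT4* went the other way with -0.67. The deposited values name genes by number only. Names could be tied to numbers only for genes that the authors had called different between T4 and T1, higher or lower. That these markers differed in hen 1 was therefore set by that choice. Names were read for 561 higher and only 261 lower genes, so the counts lean toward higher genes. The part of the marker shifts in the 48 ratios was not tested. In whole follicles, a larger share of granulosa cells and more RNA per cell cannot be told apart. No gene number was tied to a marker of theca, smooth muscle, macrophages, red blood cells or the oocyte, and *CDH5* and *APLNR* of vessels summed to 7.3, 43.5 and 42.0 FPKM in T4, T5 and T6, against 35.1, 38.1 and 58.6 FPKM in T1, T2 and T3.

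A hen left out had no part in the ratios that select genes. The limit, the genes left out by name and the direction of the pairs came from the rule, which used every hen. The readings are therefore partly set by the rule. With hen 1 left out, 79 genes passed in hens 2 and 3, and 48 of them (60.8%) reached 0.7 in T4 over T1, against 8.14% of all 11812 filtered genes after the same exclusions. With hen 2 left out, 207 genes passed and 48 (23.2%) reached 0.7 in T5 over T2, against 2.75% of all genes. With hen 3 left out, 104 passed and 48 (46.2%) reached 0.7 in T6 over T3, against 5.6%. The share that carried over was thus 7.47, 8.43 and 8.25 times that of all genes. The genes that reached 0.7 were the same 48 each time, so the readings are not independent of each other. The comparison was with all genes and not with genes that vary as much, so no conclusion is drawn from these multiples. The median in the hen left out was 1.40, 0.32 and 0.61, lower than among the 48 genes, which had to pass there.

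Some genes went the other way in the hen left out. At -0.7 or lower were 12 of 79 genes (15.2%) in hen 1, against 18.2% of all genes. In hen 2 they were 9 of 207 (4.35%), against 6.23%, and in hen 3 they were 16 of 104 (15.4%), against 8.0%. The filter on low values used all 6 follicles, so the hen left out had a part in it. Without that filter, the shares that reached 0.7 were 53.5%, 21.7% and 43.2% in hens 1, 2 and 3.

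**Figure D2:**
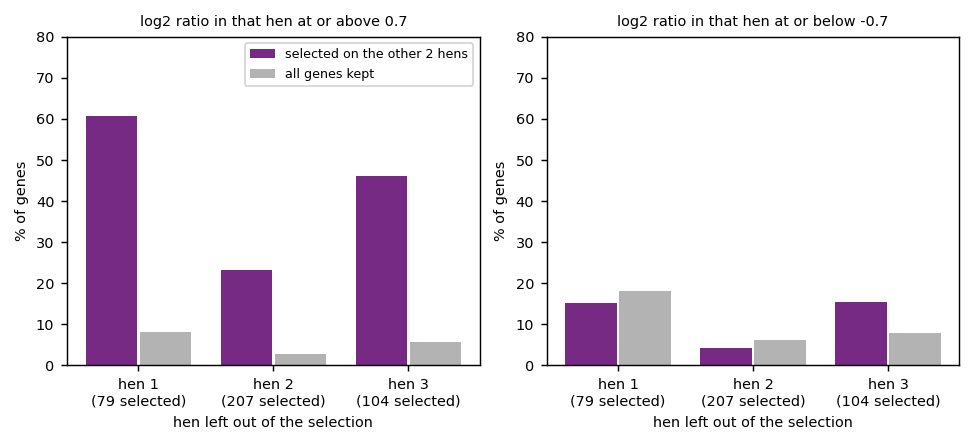
Share of genes (vertical axis, %) at a log2 ratio of 0.7 or more (left) and of -0.7 or less (right) in the hen left out of the selection (horizontal axis). Purple bars are genes selected on the other 2 hens and grey bars all filtered genes; on the left the purple bars reach 60.8%, 23.2% and 46.2%.

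Transporters, channels, adhesion proteins and other membrane proteins were grouped as 9 of the 48 genes. The receptor genes *STRA6* and *HTR7* are described with other groups. The largest mean ratio belonged to *TMEM72* (gene9341, chromosome 6, 18676617 to 18684102), which encodes a transmembrane protein. *TMEM72* had 106, 5.18 and 66.7 FPKM in T4, T5 and T6, against 1.23, 0.748 and 0.239 FPKM in T1, T2 and T3. Its log2 ratios were 5.94, 2.19 and 6.51, a mean of 4.88 ± 2.35 (SD, n = 3 hens). *TMEM72* was low in T1, T2 and T3, and T5 stayed far below T4 and T6. Positions are printed as deposited, and their genome build is not settled by the sources.

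A gene described as high-affinity choline transporter 1-like (gene2581, chromosome 1, 185006963 to 185018621) was another of them. This choline transporter-like gene had 35.7, 10.6 and 18.2 FPKM in T4, T5 and T6, against 0.803, 1.78 and 3.47 FPKM in T1, T2 and T3. Its ratios were 4.80, 2.29 and 2.24, and the groups did not overlap, that is, the lowest of T4, T5 and T6 was above the highest of T1, T2 and T3. *KCNQ1* (gene8118, chromosome 5, 12607961 to 12931503) encodes a voltage-gated potassium channel. It had 26.5, 9.06 and 11.3 FPKM in T4, T5 and T6, against 2.28, 2.45 and 5.37 FPKM in T1, T2 and T3, so that T3 stood above T1 and T2.

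The other membrane genes differed less. *SLC35F2*, a solute carrier, had 81.8, 26.3 and 43.5 FPKM in T4, T5 and T6, against 17.5, 14.8 and 15.3 FPKM in T1, T2 and T3. *SORL1*, a sorting receptor of endosomes, had ratios of 2.17, 1.05 and 0.93. The tetraspan protein gene *EMP1* had ratios of 1.76, 1.09 and 1.22, and *LRRN4*, a leucine-rich repeat protein of the membrane, of 1.56, 0.97 and 0.98. Only for *LRRN4* among these 9 did the groups overlap, since T3 (29.2 FPKM) was above T5 (26.7 FPKM). A lack of overlap was found for 35 of the 48 genes and 5.94% of all filtered genes, and the rule favours it. *CNTN4*, a contactin of cell adhesion, had the most even ratios of the 48 genes, 0.90, 0.88 and 1.04 (mean 0.94 ± 0.09, SD, n = 3 hens). It had 2.37, 2.19 and 3.89 FPKM in T4, T5 and T6, against 1.04, 0.963 and 1.63 FPKM in T1, T2 and T3. *TRPM7*, a cation channel fused to a kinase, had 14.9, 10.3 and 12.2 FPKM in T4, T5 and T6, against 6.54, 6.04 and 5.96 FPKM in T1, T2 and T3. Its ratio in hen 2 was 0.73 by FPKM and 0.44 by normalized counts, under the limit.

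Enzymes that add or remove sulfate on sugar chains were 3 of the 48. None of them overlapped between the groups, as for 35 of the 48 genes and 5.94% of all filtered genes. The rule favours this, so nothing is read from it. *SULF1* (gene4356, chromosome 2, 115909141 to 116059856) encodes a sulfatase that trims heparan sulfate outside the cell. *SULF1* had 42.5, 7.99 and 18.5 FPKM in T4, T5 and T6, against 1.66, 1.10 and 4.79 FPKM in T1, T2 and T3, ratios of 4.32, 2.41 and 1.85. *GAL3ST2* (gene11058, chromosome 9, 4123141 to 4130051) encodes a sulfotransferase that acts on galactose. It had 14.8, 4.05 and 6.51 FPKM in T4, T5 and T6, against 0.884, 1.19 and 0.547 FPKM in T1, T2 and T3. *CHST8* (gene12267, chromosome 11, 9974091 to 10144663) sulfates N-acetylgalactosamine, in mammals on the sugar chains of pituitary hormones. It had 5.42, 2.01 and 3.43 FPKM in T4, T5 and T6, against 0.583, 0.740 and 0.632 FPKM in T1, T2 and T3. Another enzyme of this kind, the chondroitin sulfotransferase gene *CHST15*, fell just short of the limit in hen 2: it had 181, 102 and 114 FPKM in T4, T5 and T6, against 52.5, 63.7 and 62.0 FPKM in T1, T2 and T3.

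For retinoids and thyroid hormone there was 1 gene each. *STRA6* (gene11601, chromosome 10, 2087156 to 2097486) encodes the receptor through which cells take up retinol from its binding protein. *STRA6* had 36.3, 9.65 and 14.9 FPKM in T4, T5 and T6, against 0.515, 0.548 and 4.58 FPKM in T1, T2 and T3. Its ratios were 5.18, 3.28 and 1.61, the second largest mean (3.35 ± 1.79, SD, n = 3 hens), and T3 stood well above T1 and T2. Of 21 genes of the retinoid pathway on a list, 5 had a gene number and 4 passed the filter. All 4 were past 0.7 in hen 1, and *STRA6* alone in hens 2 and 3, where the rule had required it. The hen 1 count was set by tying names only to genes that the authors had called different there. The enzymes that clear retinoic acid were not past 0.7 in every hen: *CYP26A1* had ratios of 1.86, -0.60 and -0.10, and *CYP26B1* of 1.35, 0.05 and -0.77. *CYP26C1*, which did not pass the filter, had 2.18, -0.60 and 1.02, past 0.7 in hens 1 and 3. The retinal reductase gene *DHRS3* had ratios of 1.26, 0.51 and -0.85.

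*DIO3* (gene8773, chromosome 5, 49199796 to 49200620) encodes the deiodinase that inactivates thyroid hormone. It had 397, 223 and 248 FPKM in T4, T5 and T6, against 121, 83.2 and 126 FPKM in T1, T2 and T3. The ratios of 1.71, 1.42 and 0.98 were among the more even ones (mean 1.37 ± 0.37, SD, n = 3 hens), and the lowest of T4, T5 and T6 was well above the highest of T1, T2 and T3. No other gene of a list of 10 on thyroid hormone had a gene number.

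**Figure D3:**
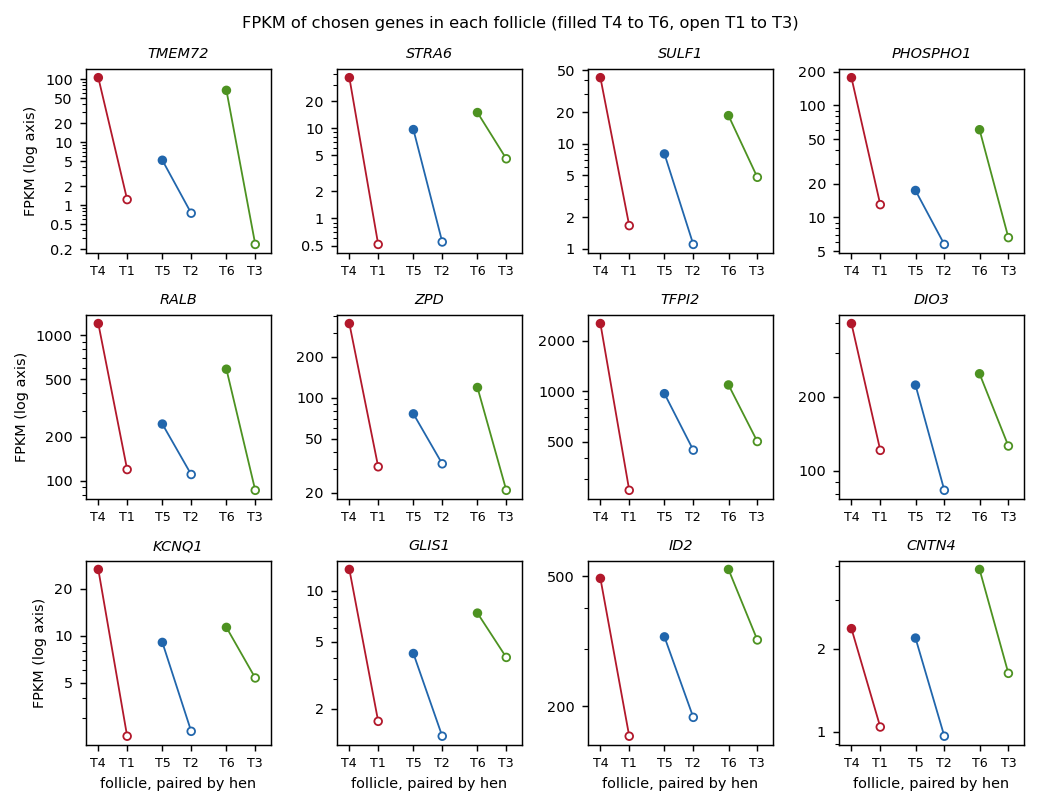
FPKM (vertical log axes, a scale of its own for each gene) in each follicle (horizontal axis) of chosen genes. Lines join the 2 follicles of a hen, filled points are T4, T5 and T6 and open points T1, T2 and T3; every line runs downward, by the rule that chose the genes, and *TMEM72* has its steepest line in hen 3, with 66.7 FPKM in T6 and 0.239 FPKM in T3.

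Gene models related to cathepsins, proteases of the lysosome, formed a group of 4. Models described as counting factor associated protein D-like were 3 of them, and gene16753, cathepsin L2-like, was the other. Chicken_newGene_3571 had 956, 248 and 746 FPKM in T4, T5 and T6, against 53.5, 78.5 and 266 FPKM in T1, T2 and T3. Chicken_newGene_5412 had 950, 230 and 777 FPKM in T4, T5 and T6, against 58.0, 79.5 and 291 FPKM in T1, T2 and T3. These 2 models had nearly the same level in every follicle, so they may be near-identical copies that share fragments, and their values are uncertain. For both, T3 was above T5, so the groups overlapped.

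Chicken_newGene_5413 had ratios of 4.09, 1.53 and 1.13, and gene16753 of 4.14, 1.39 and 0.88, at lower levels. Outside the rule, 3 more models of this kind had a description. Of these, gene19842 and gene20782 fell short only in hen 3, with ratios of 0.42 and 0.40, and gene18165, described as cathepsin L1-like, had ratios of -1.91, 0.52 and -0.47. All of the 6 models with higher values in hen 1 were higher in T3 than in T1 and T2, and hen 3 had the smallest ratio in each. Of these 6, gene16753, gene19842 and gene20782 are described as partial. Whether the 6 are copies or parts of the same gene was not tested, so they do not count as separate observations.

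Secreted and surface proteins were 5 of the 48. *TFPI2* (gene3192, chromosome 2, 23429214 to 23435638), an inhibitor of serine proteases that is held in the matrix, had the highest level of the 48 genes. It had 2533, 968 and 1091 FPKM in T4, T5 and T6, against 257, 446 and 502 FPKM in T1, T2 and T3. Hens 2 and 3 had the same ratio, 1.12, and hen 1 had 3.30. *ZPD* (gene12039, chromosome 11, 520376 to 524806) encodes an egg coat protein made in birds by the granulosa layer. It had 352, 76.1 and 119 FPKM in T4, T5 and T6, against 31.0, 32.6 and 20.8 FPKM in T1, T2 and T3. Of the other granulosa markers, *INHA*, *ZP3* and *CARTPT* also passed 0.7 in every hen, and they are not among the 48 genes because they were left out by name or lie on the sequence left out. The proteoglycan gene *CSPG5*, known from brain, had 1027, 355 and 397 FPKM in T4, T5 and T6, against 253, 207 and 179 FPKM in T1, T2 and T3. In *TFPI2*, *ZPD* and *CSPG5* T4 stood above T5 and T6. Their groups did not overlap, as for 35 of the 48 genes and 5.94% of all filtered genes.

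*SEMA3A*, a secreted guidance protein that turns axons and vessels away, had 94.7, 21.0 and 32.6 FPKM in T4, T5 and T6, against 15.4, 12.2 and 15.3 FPKM in T1, T2 and T3. A gene described as VEGFA-like (gene8598, chromosome 5, 37392129 to 37397838) had 107, 19.5 and 55.4 FPKM in T4, T5 and T6, against 6.70, 8.61 and 32.2 FPKM in T1, T2 and T3. The reference table has *VEGFA* itself on chromosome 3, so gene8598 is called by its description. T3 was above T5 for this gene, and by normalized counts its ratio in hen 3 was 0.67, under the limit.

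The cytoskeleton and its regulators were 4 genes. *RALB* (gene10169, chromosome 7, 25009364 to 25068894) encodes a small GTPase that steers exocytosis and actin. It had 1207, 245 and 585 FPKM in T4, T5 and T6, against 119, 110 and 85.6 FPKM in T1, T2 and T3. Its ratios of 3.34, 1.15 and 2.77 were 2.14, 0.50 and 1.67 by normalized counts, which takes hen 2 under the limit. An unnamed model that was also selected, Chicken_newGene_2248, lies within *RALB* on the same strand (25064713 to 25065623), so fragments of one can be counted to the other.

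*PLEKHA6*, a protein with a lipid-binding pleckstrin domain, had 39.1, 4.07 and 10.2 FPKM in T4, T5 and T6, against 2.63, 1.15 and 2.31 FPKM in T1, T2 and T3. *ESPNL*, which resembles the actin-bundling espin, had ratios of 3.96, 1.22 and 1.29. It had 10.9, 1.24 and 5.43 FPKM in T4, T5 and T6, against 0.231, 0.246 and 1.92 FPKM in T1, T2 and T3. T3 was thus above T5, and the normalized counts of *ESPNL* in T1 and T2 were only 4.65 and 4.91. The skeletal muscle actin gene *ACTA1* was highest in T6, with 235, 193 and 391 FPKM in T4, T5 and T6, against 88.1, 59.2 and 216 FPKM in T1, T2 and T3. Its ratios of 1.41, 1.70 and 0.85 were largest in hen 2, unlike most of the 48 genes, and T3 was above T5. Actin genes are nearly identical in their coding sequence, so reads of other actins may be counted to *ACTA1*. Of 21 genes on a list of small GTPases and actin-related proteins, 5 had a gene number and 4 passed the filter. All 4 were past 0.7 in hens 1 and 3 and 2 of them, *RALB* and *NEXN*, in hen 2. *RALB* had to pass in every hen by the rule, and *NEXN* passed in every hen and was left out by name. Nothing is therefore read from these counts. Of all filtered genes, 8.61%, 2.96% and 5.84% passed in hens 1, 2 and 3. The hen 1 count was set by tying names only to genes that the authors had called different there. *NEXN*, an actin-binding protein, had ratios of 3.32, 2.0 and 2.32 and is not among the 48 genes only because it is on the list of 17 left out.

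Transcription regulators were 3, and none overlapped between the groups. A lack of overlap was found for 5.94% of all filtered genes. The rule favours it, so nothing is read from it. The orphan receptor gene *ESRRB* (gene8618, chromosome 5, 37917715 to 38039992), which is related to the estrogen receptors, had 24.1, 1.85 and 5.82 FPKM in T4, T5 and T6, against 0.778, 0.599 and 0.427 FPKM in T1, T2 and T3. The zinc finger gene *GLIS1* (gene10844, chromosome 8, 23804688 to 23946147) had 13.4, 4.26 and 7.39 FPKM in T4, T5 and T6, against 1.69, 1.38 and 4.04 FPKM in T1, T2 and T3. *ID2* (gene6065, chromosome 3, 95424251 to 95426923), an inhibitor of helix-loop-helix factors that responds to bone morphogenetic proteins, had 492, 326 and 524 FPKM in T4, T5 and T6, against 162, 185 and 319 FPKM in T1, T2 and T3. *ID2* was the most abundant of the 3 and had the smallest ratios, 1.60, 0.82 and 0.72, with T5 only slightly above T3. For *GLIS1* too, T5 was only slightly above T3. Of 41 genes of the TGF-beta and bone morphogenetic protein pathways, 8 had a gene number. In hen 1, 7 of them were past 0.7 and *CHRD* (-2.44) was at -0.7 or lower. That hen 1 count was set by tying names only to genes the authors had called different there. In hens 2 and 3, *SMAD2*, *INHA* and *ID2* passed, against 2.96% and 5.84% of all filtered genes, and *FST* had -1.09 in hen 3. *ID2* had to pass by the rule, and *SMAD2* and *INHA* passed in every hen and were left out. Nothing is therefore read from these counts. The receptor genes *BMPR1B* (1.28, 0.09 and 0.57) and *BMPR2* (1.73, 0.21 and 0.23) passed in hen 1 only.

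Signalling through cyclic AMP was represented by a receptor and an anchor protein. *HTR7* (gene9356, chromosome 6, 19139506 to 19172970) encodes a serotonin receptor that raises cyclic AMP. *HTR7* had 7.18, 3.58 and 7.84 FPKM in T4, T5 and T6, against 2.40, 1.55 and 2.92 FPKM in T1, T2 and T3. Its ratios were 1.40, 0.99 and 1.29 by FPKM, and less even by normalized counts, with 1.64, 0.80 and 1.09. *AKAP7* (gene5632, chromosome 3, 56878469 to 56950966), which holds protein kinase A at membranes, had 15.4, 8.25 and 16.5 FPKM in T4, T5 and T6, against 4.66, 4.44 and 5.19 FPKM in T1, T2 and T3. For both genes T4 and T6 were close to each other and T5 was lower, while T1, T2 and T3 were all below T5. Of 28 other genes on a cyclic AMP list, 2 had a gene number and 1 passed the filter, with ratios of 1.44, 0.26 and -0.25.

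Enzymes and other proteins, most of them of metabolism, were grouped as 7 genes. *PHOSPHO1* (gene17687, chromosome 27, 3411895 to 3417615) encodes a phosphatase of phosphocholine and phosphoethanolamine, known from mineralising cartilage and bone. It had 177, 17.4 and 60.7 FPKM in T4, T5 and T6, against 13.0, 5.74 and 6.60 FPKM in T1, T2 and T3. *EPHX1L*, an epoxide hydrolase, had even ratios of 1.55, 1.28 and 1.39 (mean 1.41 ± 0.14, SD, n = 3 hens) and was highest in T6. *AIFM2*, an oxidoreductase that reduces coenzyme Q, had 42.7, 17.5 and 25.7 FPKM in T4, T5 and T6, against 11.3, 8.54 and 12.6 FPKM in T1, T2 and T3. *COQ10A*, which binds coenzyme Q, had 61.9, 30.7 and 39.2 FPKM in T4, T5 and T6, against 20.3, 18.5 and 17.6 FPKM in T1, T2 and T3. By normalized counts *COQ10A* had 0.65 in hen 2, just under the limit.

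A gene described as putative phospholipase B 81b (gene654) had 277, 114 and 122 FPKM in T4, T5 and T6, against 59.8, 62.1 and 68.6 FPKM in T1, T2 and T3. *CHAC2*, an enzyme that breaks down glutathione, had ratios of 1.87, 0.75 and 0.82 at levels of 0.713 to 4.90 FPKM, and T3 (1.57 FPKM) was above T5 (1.54 FPKM). The gene described as *CHORDC1* (gene6452) lies on chromosome 4, 2236538 to 2242172, while the reference table has *CHORDC1* on chromosome 1. It had 16.2, 2.24 and 3.62 FPKM in T4, T5 and T6, against 5.95, 1.18 and 0.885 FPKM in T1, T2 and T3. T1 was thus above T5 and T6, so the groups overlapped although the ratio was 0.71 or more within every hen, and by normalized counts it was 0.64 in hen 2.

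No name was given to 9 of the 48. The largest mean ratio among them was that of Chicken_newGene_4042, with 5.30, 5.26 and 12.6 FPKM in T4, T5 and T6. In T3 it was at 7.23 FPKM, in T1 at 0.000177 FPKM, and in T2 it was listed at 0. Chicken_newGene_3390 followed, with 3.64, 5.06 and 1.62 FPKM in T4, T5 and T6, against 1.19, 0.149 and 0.416 FPKM in T1, T2 and T3. Its highest normalized count was only 15.2, in T5. Picked after their values were seen, gene8126 and gene19838 were lower still in normalized counts. For gene8126 (324 bases, chromosome 5) these were 3.04, 2.04 and 2.02 in T4, T5 and T6, and it was listed at 0 in T1, T2 and T3. It lies 8511 bases past the end of *TH*, on the same strand, and *TH* had 60.5, 16.6 and 35.7 FPKM in T4, T5 and T6, against 0.586, 2.70 and 1.01 FPKM in T1, T2 and T3. For gene19838 (231 bases, the shortest of the 48) they were 3.04, 1.02 and 7.08 in T4, T5 and T6, against 0.931, 0 and 2.89 in T1, T2 and T3. These 3 genes had under 20 normalized counts in every follicle, and their ratios rest on few fragments.

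The deposited normalized counts gave a second reading of the same fragments. With 10 added to them, 38 of the 48 genes stayed at 0.7 or more in every hen and 10 did not, among them *RALB*, *TRPM7*, *COQ10A* and the VEGFA-like gene. No ratio of the 48 genes was below 0 by normalized counts. The median absolute difference between the 2 readings was 0.12 on the log2 scale and the largest was 1.98. The largest was that of gene19838 in hen 2, with 2.12 by FPKM and 0.14 by normalized counts. Its counts there were 1.02 in T5 and 0 in T2. Adding 10 to counts this low shrinks the ratio, so the 2 readings of such genes differ by that choice.

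**Figure D4:**
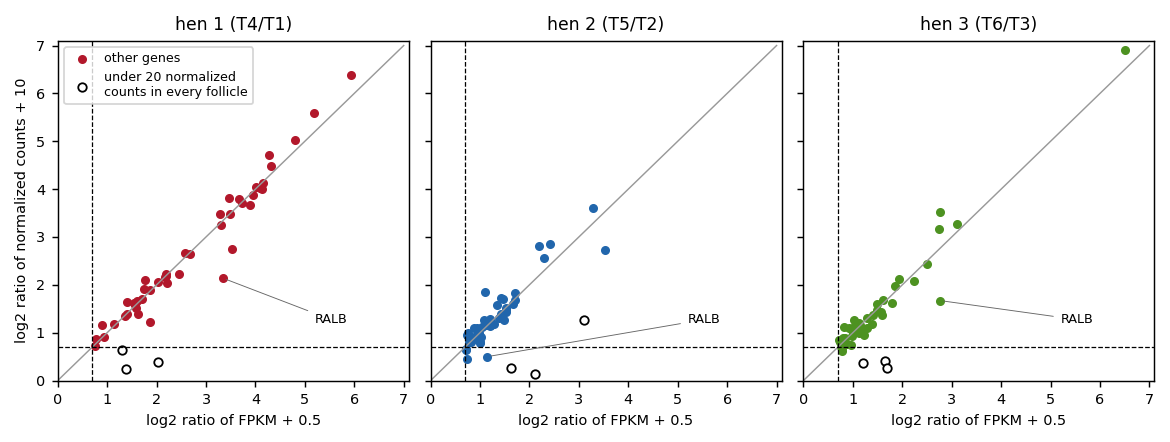
Log2 ratio of normalized counts + 10 (vertical axis) against log2 ratio of FPKM + 0.5 (horizontal axis) for the 48 genes, 1 panel per hen. The solid line marks equality and the dashed lines the limit of 0.7; open points are the 3 genes under 20 normalized counts in every follicle, which lie below the line, as does *RALB*, at 0.50 and 1.15 in hen 2.

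Within a hen the separation of the 48 genes was fixed by the rule, while between follicles of different hens the groups could overlap. For 35 of the 48 genes the lowest of T4, T5 and T6 was above the highest of T1, T2 and T3, which held for 5.94% of all filtered genes; the rule used these follicles, so nothing is read from that count. Of the 13 genes that overlapped, 10 had T3 above T5. T3 was the highest of T1, T2 and T3 for 28 of the 48 genes, T1 for 17 and T2 for 3. No share of all filtered genes was taken for these counts of T3, so nothing is read from them.

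The 48 genes had low levels in T1, T2 and T3. Their median over genes of the mean of these follicles was 4.08 FPKM, against 14.4 FPKM for all filtered genes. It was under 1 FPKM for 7 genes, *TMEM72*, *ESRRB*, *GAL3ST2* and *CHST8* among them, and above 50 FPKM for 9, *TFPI2*, *CSPG5* and *ID2* among them. All 48 were at 1 FPKM or more in T4, T5 and T6, and 38, 36 and 40 of them in T1, T2 and T3. A gene can pass the filter through T4, T5 and T6 alone, so a low level in the others is partly set by the rule.

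The 48 genes were spread over 16 chromosomes, with 7 on chromosome 1, 6 on chromosome 3, 5 on chromosome 5 and 4 on chromosome 2. Not assigned to a chromosome were 7. Within 1 Mb of each other lay 7 pairs. In 6 of them the genes did not overlap: *EMP1* and the phospholipase B 81b gene (555 kb apart), *SLC35F2* and an unnamed model (537 kb), *ESRRB* and the VEGFA-like gene (520 kb), *TMEM72* and *HTR7* (455 kb), *GAL3ST2* and *ESPNL* (195 kb), and *KCNQ1* and gene8126 (194 kb). The last pair has *TH*, itself past the limit in every hen, between them, and between the genes of the other 5 pairs no gene passed in every hen. Gene models that the authors added to the annotation were 8 of the 48 (16.7%), against 7.38% of all filtered genes. The median transcript length was 2724 bases, against 2979 bases for all filtered genes.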

How the data were processed

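The authors enriched poly(A) RNA of single follicles, sequenced it, and mapped the reads to the chicken genome. The submitters' notes on processing list Bowtie 0.12.2 and Cufflinks. The deposited table holds FPKM values that the authors computed per gene and follicle, and normalized counts, a signal the authors scaled between libraries, in columns of their own. The notes name the build mm8, a mouse build, and the paper names Gallus_gallus-5.0, so the build of the positions is not settled. Positions were kept as the table has them, and a sequence was given a chromosome where at least 80% of its named genes lie on that chromosome in the reference table (GRCg7b). In the table, 1 column (raw fragment number) could not be tied to a follicle and was not used. Columns of the authors' comparisons in the supplementary tables hold fold changes and FDR values and were not used.

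Ratios were formed as log2((FPKM + 0.5)/(FPKM + 0.5)) within a hen, which understates the differences of low genes, and genes were kept at 1 FPKM or more in 3 or more follicles. Neither unit is a raw count, so no count model was fitted, and no test was made on values that the selection used. The genes and lists were chosen with earlier results of these data known, and values of the supplementary tables had been read. Names came from the annotation columns of the table of T1 vs. T4 genes, whose 561 higher and 261 lower genes were read; the lower part was read only to its 261 first genes, far fewer than the study called, so that counts over lists lean toward higher genes. Of the 48 genes 42 are among the 561, so that the authors had chosen these on hen 1. Of 31 symbols, 30 lay within 2 Mb on the same chromosome in the reference table and 1 (*COQ10A*) could not be placed. Among the 30, *ZPD* was matched through a synonym, since the reference table lists it as *UMOD*. Of 299 genes on 18 lists, 53 had a gene number, which is why lists are given by counts. Every gene with a name or description is described, with the unnamed genes of the 2 largest mean ratios, the 3 genes on either side of the limit, and *FSHR*. Alternatives were other pseudocounts, filters and limits, a scaling by the median of ratios, normalized counts and each hen left out. A planned search of promoters for motifs was not run, since no promoter sequences were at hand. Python 3.11.15, numpy 2.4.6 and pandas 2.3.3 were used.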

Additional observations from a re-analysis of the deposited data

How the results depend on the processing

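The number of selected genes moved with the limits: it was 104 at a log2 limit of 0.5, 22 at a limit of 1 and 31 with a filter at 5 FPKM, against 48. Without a hen it ranged from 79 (without hen 1) through 104 (without hen 3) to 207 (without hen 2), since fewer pairs had to pass. Of the 48 genes, 41 stayed with a pseudocount of 1, 44 with the median of ratios and 38 with normalized counts. The share that carried over to hen 2 was 30.5% with the median of ratios, against 23.2%, and that to hen 1 was 79.0% with normalized counts, against 60.8%; the cause was not tested. The median ratio of genes selected without 1 hen ranged from 1.40 to 1.59 in hen 1, from 0.32 to 1.10 in hen 2 and from 0.61 to 1.13 in hen 3. No ratio of a named gene changed sign under another pseudocount, scaling or unit; of 117 ratios, 8 moved by more than the SD over hens with normalized counts and 3 with each other pseudocount. Every ratio is within a hen, and no paired test over the hens was made on the genes, since the same ratios chose them. The promoter search was not run. The depth in raw fragments of each gene was not used here, so no counting interval is given.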
